A study of Mus musculus with 6 samples.

Results

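The genes of major histocompatibility complex (MHC) class II antigen presentation were examined in secondary follicles of the mouse ovary, as 6 genes that the array's annotation names singly: H2-Aa, H2-Ab1, H2-Eb1, H2-DMa, Cd74 and Ciita. They were represented by 14 of 34945 probe sets with a single gene symbol, or 6 of 18193 genes. The samples came from specific pathogen-free female C57BL/6J mice, 3 from mice of 9 weeks (young) and 3 from mice of 32 weeks (old), with no other treatment or allele in either group. The study raised the possibility that its mice had caught some viruses, which was not tested here. Follicles with an oocyte, granulosa cells and an intact basal membrane were freed from the ovary by hand with needles, and total RNA was hybridized to an Affymetrix 3' expression array. Each probe set on it combines several short probes placed near the 3' end of a transcript. The samples were labelled biological replicates. How many mice or follicles made up a sample is not stated there, and the p-values cover the spread among these 6 samples, which may be partly technical.

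MHC class II molecules are pairs of an alpha and a beta chain that display peptides from endocytosed proteins to CD4+ T cells, and dendritic cells, macrophages and B cells are the cells best known for them. The invariant chain, encoded by Cd74, fills the peptide groove until the acid compartments are reached, and the H2-DM molecule then exchanges its remnant for a peptide. Transcription depends on Ciita, a coactivator without DNA binding of its own that docks on RFX, CREB and NF-Y proteins at the X and Y boxes of class II promoters. Class I molecules show peptides from the cytosol, are made by nearly all nucleated cells, and have Nlrc5 as the related coactivator.

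RefSeq promoter sequence (GRCm38.p6) was at hand for 3 of the 6 genes, H2-Aa, H2-Eb1 and H2-DMa. The 250 bases before the start site are shown for H2-Aa (chr17:34287824-34288073, minus strand) and H2-Eb1 (chr17:34305617-34305866, plus strand), since these are the boxes on which the class II coactivator is known to act and both genes differed between the ages. The capitals mark the Y box core CTGATTGG and the X box core GCAAC, searched on both strands.
H2-Aa: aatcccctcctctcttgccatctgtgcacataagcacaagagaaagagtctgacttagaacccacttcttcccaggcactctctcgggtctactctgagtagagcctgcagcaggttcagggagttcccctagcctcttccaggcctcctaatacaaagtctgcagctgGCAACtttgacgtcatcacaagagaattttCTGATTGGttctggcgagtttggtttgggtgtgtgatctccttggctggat
H2-Eb1: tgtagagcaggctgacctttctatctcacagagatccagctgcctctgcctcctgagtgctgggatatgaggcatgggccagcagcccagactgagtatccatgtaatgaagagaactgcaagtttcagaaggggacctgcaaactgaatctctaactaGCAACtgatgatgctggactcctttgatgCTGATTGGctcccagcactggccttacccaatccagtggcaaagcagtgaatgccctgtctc
In both windows the X box core lay upstream of the Y box core, as it also did in the window of H2-Oa. The window of H2-Eb2 held X box cores on both sides of its Y box core. H2-Oa and H2-Eb2 are class II genes that did not pass the test below. The Y box core began 51 bases before the start site of H2-Aa and 62 bases before that of H2-Eb1, and the X box core began 81 and 91 bases before it. Of 32851 promoter windows of the same length, 3.83% held the Y box core, 29.9% held the X box core and 1.22% held both. The motifs do not overlap each other. The letters of the Y box core were in neither of the windows of H2-DMa. In 1 of these windows the X box core lay on the opposite strand, 3 to 7 bases before the start site. The window of H2-Ob held an X box core without a Y box core, and those of H2-DMb1 and H2-DMb2 held neither. These matches describe sequence and were not tested for binding.

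The labelled tissue was checked first. The granulosa cell genes Amh and Foxl2 were at 10.04 and 11.42 and the oocyte genes Gdf9 and Zp3 at 12.26 and 11.96 in the young samples (mean log2 intensity, n = 3), while the medians of the arrays lay between 4.93 and 4.95. The brightest probe sets of 16 genes of other organs, such as Alb, Gcg and Cryaa, had means between 2.10 and 5.44, and this range is used as the level of probe sets with little or no target RNA. Of these genes, Ttn, Gfap and Alb changed by -0.50, -0.32 and 0.29 without overlap and passed the test described below. Of the 16, 1 was thus higher and 2 were lower, where 10.1% of all genes were higher and 13.3% were lower. The 3' minus 5' difference of the control probe sets, a measure of RNA length, averaged 0.469 on the young and 1.51 on the old arrays for Gapdh, without overlap. This measure thus moved with age beside every result given here, and its part in them was not tested.

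H2-Aa, H2-Ab1, Cd74 and H2-Eb1 were higher in secondary follicles from old than from young mouse ovaries, by factors of 1.72, 1.52, 1.47 and 1.37 at their brightest probe sets, while H2-DMa and Ciita did not pass the test. None of the 6 genes reached a fold of 2. A gene was counted as past the test at an adjusted p of at most 0.05 from limma, with Benjamini-Hochberg adjustment over all 18193 genes. By this rule 4 of the 6 genes were higher and 0 were lower, where 10.1% of all genes were higher and 13.3% were lower. With the additional fold of at least 2 used by the study, limma and SAM called 0 of the 6, where limma called 0.764% of all genes, and the 4 genes were also those at an unadjusted p under 0.05. In the same 4 of the 6 genes all old samples lay above all young samples, which held for 18.9% of all genes. The median log2 change of the 6 genes was 0.50, and that of all genes tested was -0.0042.

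H2-Aa, the alpha chain of the I-A molecule, had the largest change of the 6. Its brightest probe set (1435290_x_at) read 6.89, 6.98 and 6.85 in the young and 7.60, 7.72 and 7.75 in the old samples (log2 intensity). All old samples lay above all young samples. The difference was 0.78 on the log2 scale (standard error 0.065, 95% confidence interval 0.63 to 0.93, adjusted p = 4.0e-04 from limma). H2-Aa had 3 more probe sets, and 1438858_x_at showed nearly the same change of 0.73, from 6.40 to 7.13. The dimmer probe set 1452431_s_at went from 5.07 ± 0.17 to 5.31 ± 0.17 (SD, n = 3 each) with overlapping groups (adjusted p = 0.17 from limma over all probe sets). The dimmest one, 1443783_x_at, was at 1.90 and 1.87, below the level of every probe set used for genes of other organs. When all 4 were averaged, the change of H2-Aa was 0.43 and still passed (adjusted p = 0.0067 from limma).

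H2-Ab1, the beta chain that pairs with H2-Aa, changed at 1 of its 3 probe sets. The brightest (1450648_s_at) read 6.09, 6.11 and 6.12 in the young and 6.58, 6.73 and 6.82 in the old samples. The groups did not overlap, and the young samples lay closer together than the old ones. The difference was 0.60 (standard error 0.071, 95% confidence interval 0.44 to 0.77, adjusted p = 0.0017 from limma). The other probe sets of H2-Ab1, 1425477_x_at and 1451721_a_at, were level between the ages, at 4.42 and 4.42 and at 4.38 and 4.39, inside the range of the genes of other organs. The ending s or x marks probe sets that the array's makers flag as shared with other transcripts. Without such probe sets, H2-Ab1 was represented by 1451721_a_at and had a change of 0.0043 (adjusted p = 0.97 from limma), and H2-Aa was not represented at all. As the average of its 3 probe sets, H2-Ab1 was at 0.20 (adjusted p = 0.044 from limma).

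H2-Eb1, the beta chain of the I-E molecule, and Cd74 each had 1 probe set, and neither is of the shared kind. H2-Eb1 (1417025_at) read 5.74, 5.78 and 5.97 in the young and 6.23, 6.30 and 6.31 in the old samples. The lowest old sample was above the highest young sample. The difference was 0.45 (standard error 0.072, 95% confidence interval 0.29 to 0.62, adjusted p = 0.0050 from limma). C57BL/6 mice carry an inactive H2-Ea gene, so that the I-E molecule is not displayed in this strain even where H2-Eb1 is transcribed.

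Cd74 (1425519_a_at) read 6.14, 6.09 and 6.36 in the young and 6.71, 6.82 and 6.71 in the old samples. Again the groups did not overlap, with young replicate 3 the nearest to the old samples. The difference was 0.55 (standard error 0.082, 95% confidence interval 0.36 to 0.74, adjusted p = 0.0039 from limma). Ordered by change, the 4 genes ran H2-Aa, H2-Ab1, Cd74 and H2-Eb1, and the confidence intervals of neighbours in this order overlapped. Each of the 4 passed the test without any single sample, with changes between 0.41 for H2-Eb1 and 0.83 for H2-Aa.

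Ciita, the coactivator, did not differ beyond the spread between replicates. Its brightest probe set (1421210_at) read 4.27, 4.07 and 4.07 in the young and 4.19, 4.16 and 4.21 in the old samples. The old samples lay within the young ones. The difference was 0.049 (95% confidence interval -0.11 to 0.21, adjusted p = 0.64 from limma). The probe set 1421211_a_at went from 3.09, 3.16 and 2.99 to 3.23, 3.20 and 3.30, a change of 0.17 without overlap that did not pass (adjusted p = 0.12 from limma over all probe sets). The remaining one, 1447075_at, was at 2.19 and 2.20. The means of all 3 were inside the range of the genes of other organs, where some genes, such as Cd274 below, did pass the test. How much of the signal of these probe sets came from Ciita RNA was not tested.

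H2-DMa, the alpha chain of the peptide-exchange molecule, was likewise in that range. Its brightest probe set (1422527_at) read 3.73, 4.06 and 3.75 in the young and 4.22, 3.81 and 3.76 in the old samples. The groups overlapped, and the difference of 0.084 (95% confidence interval -0.25 to 0.42, adjusted p = 0.70 from limma) rested on old replicate 1, without which it was -0.062. The other probe set of H2-DMa (1459872_x_at) was at 2.33 and 2.20.

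Over the 14 probe sets, 5 were higher and 0 were lower (limma, adjusted over all probe sets), where 8.95% of all probe sets were higher and 13.8% were lower. The groups did not overlap in 6 of the 14, each with the old samples above, where 17.6% of all probe sets had this pattern. Of the 14 probe sets, 7 are of the shared kind.

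**Figure D1:**
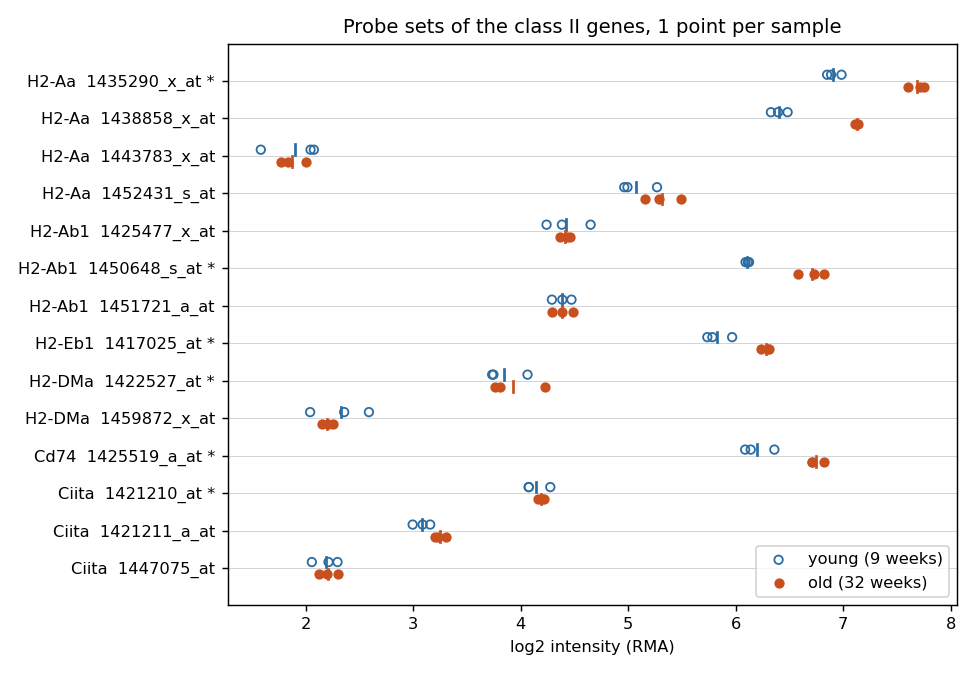
Log2 intensity (horizontal axis) of the 14 probe sets of the 6 class II genes, with open circles for the 3 young and filled circles for the 3 old samples, a short line at each mean and a star at the brightest probe set of a gene. The brightest probe sets of H2-Aa, H2-Ab1, H2-Eb1 and Cd74, 1438858_x_at of H2-Aa and 1421211_a_at of Ciita separate the ages, and those of Ciita and H2-DMa all lie below 5.

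Of the remaining class II chains, none passed at its brightest probe set. H2-Oa and H2-Ob, which form a brake on H2-DM, H2-Eb2, H2-DMb2 and the inactive H2-Ea were measured. Of these 5 genes limma and SAM found 0 past the adjusted threshold, and 1, H2-Oa, was at an unadjusted p under 0.05. H2-Oa read 6.01, 5.90 and 5.87 in the young and 6.01, 6.17 and 6.19 in the old samples. All old samples were at or above the highest young sample, and the difference of 0.20 did not pass (adjusted p = 0.079 from limma). The median change of the 5 chains was 0.14, and the highest was 0.28 for H2-Ea. A dimmer probe set of H2-DMb2, 1443687_x_at, passed at 0.37 (adjusted p = 0.044 from limma over all probe sets), from 2.76 to 3.13, within the range of the genes of other organs. The level of H2-DMb1 was not analysed here.

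Class I presentation, against which class II was set, also rose. Of 20 measured class I genes, 14 were higher past the adjusted p and 0 were lower, where 10.1% of all genes were higher and 13.3% were lower. Their median log2 change was 0.42. Relative to the young mean, the 6 class II genes averaged 0.42, 0.42 and 0.42 in the 3 old samples, and the 20 class I genes averaged 0.42, 0.47 and 0.42. The difference between these averages was at most 0.054 in any old sample, and no test was made of it. The class II average includes Ciita (0.049) and H2-DMa (0.084), which were in the range of the genes of other organs. A mean under 5 was found for 2 of the 6 class II and 2 of the 20 class I genes. The nearness of the averages thus depends on which genes are in the lists.

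Among the display molecules, the class I heavy chains H2-K1 and H2-D1 rose by 0.31 (95% confidence interval 0.20 to 0.42) and 0.32 (0.20 to 0.43), and their light chain B2m rose by 0.48 (0.36 to 0.60). Other probe sets of the heavy chains rose as well, 1451931_x_at of H2-K1 by 0.38 (0.24 to 0.53) and 1426324_at of H2-D1, which is not of the shared kind, by 0.56 (0.31 to 0.80), and the interval of the latter overlapped with those of H2-Aa, H2-Ab1 and H2-Eb1. At the brightest probe sets, the interval of B2m overlapped with those of H2-Ab1 and H2-Eb1. Those of H2-K1 and H2-D1 overlapped with that of H2-Eb1. Genes of peptide supply also rose. The immunoproteasome subunits Psmb8 and Psmb9 rose by 1.20 and 0.90, the peptide pump subunit Tap1 by 0.998 and the loading protein Tapbp by 0.86. Class I heavy chains are close paralogs whose transcripts can bind the same probes, and 10 of the 30 genes in that list had no probe set of their own and were not analysed here.

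Of the coactivators, Nlrc5 was measured well above the range of the genes of other organs and Ciita was not. Nlrc5 read 7.06, 7.10 and 7.13 in the young and 7.89, 8.05 and 7.99 in the old samples. It rose by 0.89 (standard error 0.060, adjusted p = 1.7e-04 from limma). Since the probe sets of Ciita lay inside that range, the changes of the coactivators were not compared.

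**Figure D2:**
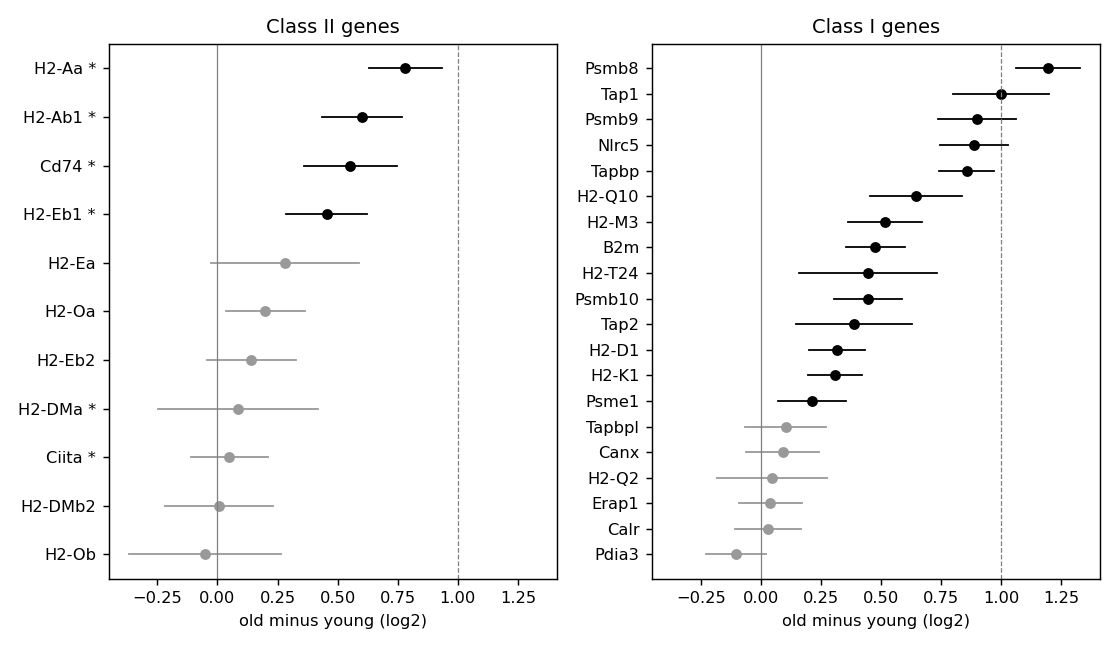
Old minus young log2 intensity (horizontal axis) with 95% confidence intervals from limma for 11 class II genes on the left (the 6 genes of interest have a star) and 20 class I genes on the right. Black points passed an adjusted p of 0.05, grey points did not, and the dashed line is a fold of 2, which Psmb8 alone passed at 1.20.

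The genes that serve class II molecules were counted in 4 lists of together 32 measured genes, each gene at its brightest probe set. Of these, 3 (9.38%) were higher and 6 (18.8%) were lower past the adjusted p, beside 10.1% and 13.3% of all genes, so that the counts of these lists are not a result about them. Of the 7 proteins that Ciita docks on, 2 were lower and 0 were higher past the adjusted p, with a median change of -0.15. Creb1 fell by 0.46 and Nfyb, a subunit of NF-Y, by 0.35. The probe sets of NF-Y subunits differed: 1419266_at of Nfyb was level at 6.96 and 6.97, and 1422082_a_at of Nfya fell by 1.12 (adjusted p = 9.3e-04 from limma over all probe sets), while the brightest of Nfya was at -0.15 and did not pass. The RFX subunits Rfx5, Rfxap and Rfxank, which bind the X box, were at 0.12, -0.087 and -0.23 and did not pass.

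The route by which interferon gamma induces Ciita was measured through 9 genes, of which 1 was lower and 0 were higher. That gene was Socs1, an inhibitor of Janus kinases, which read 5.72, 5.67 and 5.62 in the young and 5.11, 5.21 and 5.04 in the old samples, a fall by 0.55 without overlap (adjusted p = 0.0014 from limma). The receptor chains Ifngr1 and Ifngr2 were at -0.052 and -0.11, the kinases Jak1 and Jak2 at 0.19 and 0.13, and the transcription factor Irf1 at 0.022, and none of these passed at the brightest probe set. Other probe sets of Jak1, Jak2 and Ifngr2 did pass, in the opposite direction. For Jak1, 1433804_at fell by 1.28 and 1433805_at by 1.003 (adjusted p = 3.4e-05 and 1.6e-04 from limma over all probe sets). For Jak2, 1421065_at fell by 0.53 (adjusted p = 0.013 from limma), and for Ifngr2, 1423558_at rose by 0.25 (adjusted p = 0.033 from limma). Ifng itself was at 1.96 and 1.94, below the level of the genes of other organs.

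Of 7 genes that cut or unfold proteins for class II, 2 were higher and 2 were lower. Ctss, the protease that trims the invariant chain in dendritic cells and macrophages, read 5.96, 5.82 and 5.95 in the young and 7.18, 7.29 and 7.34 in the old samples. It rose by 1.36 (standard error 0.068, adjusted p = 3.3e-05 from limma) and was the only one of the 32 genes over a fold of 2 at its brightest probe set. Ifi30, a thiol reductase of the same compartments, rose by 0.20, while the protease genes Ctsh and Lgmn fell by 0.42 and 0.31. Ctsl, Ctsb and Ctsd were at -0.17, -0.0080 and 0.00011 and did not pass. Here too the probe sets differed, since 1443814_x_at of Ctsh was level with a change of 0.055, and 1448732_at of Ctsb fell by 0.86 from 7.26 to 6.40 (adjusted p = 6.4e-04 from limma over all probe sets).

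Among 9 genes of class II turnover and T cell costimulation, 1 was higher and 1 was lower. Cd274, the inhibitory ligand PD-L1, read 4.58, 4.65 and 4.57 in the young and 5.32, 5.29 and 5.24 in the old samples. It rose by 0.68 (standard error 0.052, adjusted p = 2.7e-04 from limma), inside the range of the genes of other organs in both groups. Icosl, a costimulatory ligand, fell by 0.35. Cd80, Cd86 and Cd40, which activate T cells beside class II, were at 0.037, 0.27 and 0.19 and did not pass, and neither did the ubiquitin ligases Marchf1 (0.19) and Marchf8 (-0.049), which remove class II from the surface.

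Among the cells known for class II, macrophages had markers that were mostly higher in the old samples. Of 19 macrophage markers, 11 were higher and 1 was lower, where 10.1% of all genes were higher and 13.3% were lower, and these shares apply to the marker lists below as well. The median change of the macrophage markers was 0.35, and their summed intensity was between 535.2 and 544.2 in the young and between 766.7 and 784.9 in the old samples. Mpeg1, Tyrobp, Fcer1g and C1qa rose by 1.30, 0.93, 0.81 and 0.78, and Csf1r, the receptor that macrophages need to survive, rose by 0.78 from 5.48 to 6.26. The 1 lower marker was Lyz2, which fell by 0.32 from 6.09 to 5.77 without overlap (adjusted p = 0.016 from limma). Of the 19 changes, 15 were above 0. Adgre1 and Cd68 were at 0.20 and 0.20 and did not pass. Of 7 pan-leukocyte markers, Cd52 and Ptprc rose, by 1.26 and 0.82. The summed intensity of the 7 went from between 175.0 and 200.1 to between 205.5 and 244.0. Ptprc, from 3.91 to 4.73, stayed inside the range of the genes of other organs. The young means of Cd52, Mpeg1, Tyrobp, Fcer1g and C1qa were inside that range and their old means above it. The summed intensity of the 6 class II genes was between 342.9 and 359.9 in the young and between 506.3 and 544.9 in the old samples.

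Dendritic, B and T cell markers were mostly below the threshold. Of 9 dendritic cell markers, 1 was higher, Cd209a by 0.19, and 1 was lower, Zbtb46 by 0.47. SAM found 2 of them higher and 1 lower. Itgax and Flt3 were at 3.58 and 3.98 and at 3.77 and 3.70, inside the range of the genes of other organs, and did not pass. The change of Itgax was 0.40, without overlap of the groups (adjusted p = 0.069 from limma). Cd209a, at 4.02 and 4.21, was inside this range too. The summed intensity of the dendritic cell markers was between 513.3 and 558.6 in the young and between 440.6 and 475.0 in the old samples. Most of this difference came from Zbtb46, whose 3 other probe sets did not pass, and without it the sums overlapped, between 265.4 and 293.8 and between 252.7 and 287.7. The median change of the 9 markers was -0.017. Of 7 B cell markers, Ms4a1 fell by 0.28 and the others, among them Cd79a at -0.064, did not pass, with summed intensities between 364.6 and 382.4 and between 331.3 and 362.7. Without Ms4a1 these sums overlapped too, between 209.6 and 219.7 and between 200.9 and 229.2. The sums without Zbtb46 and Ms4a1 were taken after the values were seen. Of 7 T cell markers limma found 0 past the adjusted p, SAM found 2, and 2 were at an unadjusted p under 0.05. Their summed intensities overlapped, between 146.6 and 153.2 in the young and between 151.1 and 167.0 in the old samples. Cd3e was at 4.005 and 4.09.

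Markers of cells other than leukocytes differed as well. Of 7 surface epithelium markers, 6 were higher, with Krt7, Krt19 and Upk3b at 1.63, 1.55 and 1.17. Of 10 theca and stroma markers, 6 were higher and 1 was lower, with a median of 0.34 and with Star and Cyp11a1 at 1.88 and 1.34. The young means of Krt7, Krt19, Upk3b and Star were inside the range of the genes of other organs. Of 8 endothelial markers, 3 were higher and 1 was lower. Of 12 oocyte markers, 10 were lower and 0 were higher, with a median of -0.31, and of 12 granulosa cell markers, 1 was higher and 2 were lower. More cells of a type and more RNA per cell cannot be told apart in these samples, and the part that any of these cells had in the class II values was not tested.

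**Figure D3:**
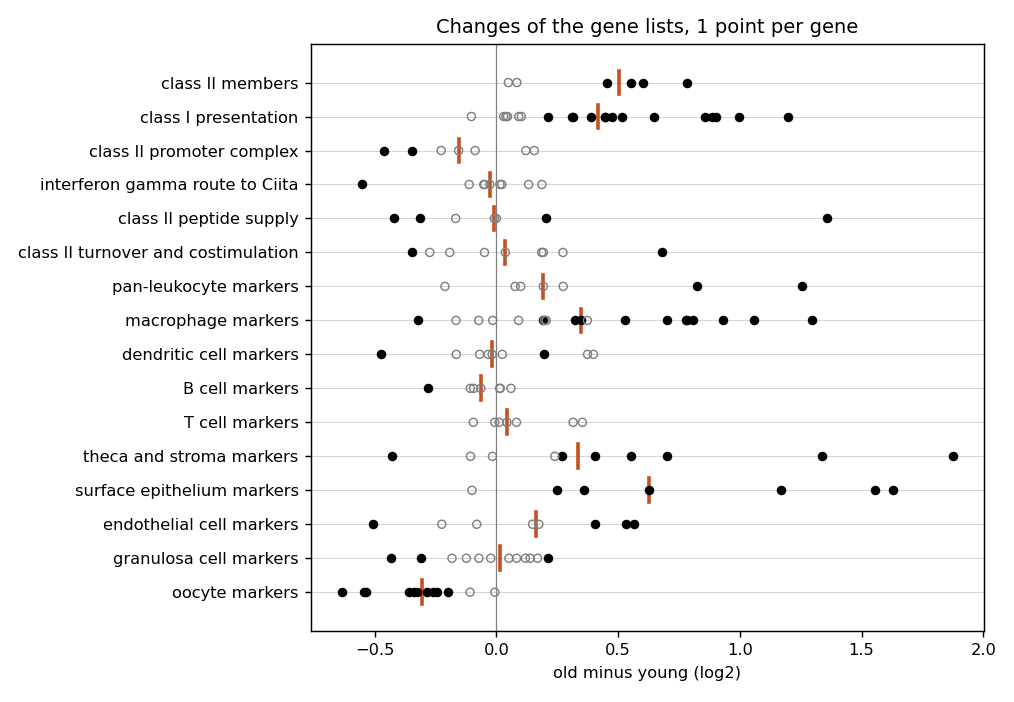
Old minus young log2 intensity (horizontal axis) for the genes of 16 lists (rows), 1 point per gene, filled where limma's adjusted p was at most 0.05, with an orange line at the median. Class II, class I, macrophage, theca and stroma, and surface epithelium lists have medians of 0.50, 0.42, 0.35, 0.34 and 0.63. The lists of the class II promoter complex and of dendritic, B and T cells lie between -0.15 and 0.043.

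Genes with a pattern like that of H2-Aa, the class II gene with the largest change, were sought over the 6 samples among all 18193 genes, by the root mean square difference of log2 values after each gene was set to its young mean. The nearest were Rian (0.038), Mx1 (0.043), Trim25 (0.044), Gca (0.060) and Ctla2b (0.062). Mx1 and Trim25 are interferon-induced antiviral genes, and Rian is an imprinted noncoding RNA. All 5 rose, between 0.72 for Ctla2b and 0.83 for Mx1, and this likeness is a description of 6 arrays. Mx1, Gca and Ctla2b stayed inside the range of the genes of other organs in both groups.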

How the data were processed

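RNA of secondary follicles from 3 young and 3 old mouse samples was measured on Affymetrix Mouse Genome arrays. The authors processed the scans with RMA (no version was stated) and deposited intensity values on a linear scale, of which log2 was taken without a pseudocount. Probe sets with several symbols (932) or none listed (9211) and controls were left out, and symbols were updated through RefSeq (GRCm38.p6) for 18032 of 18194 gene IDs. A gene's brightest probe set by its mean on all arrays stood for it, and dim probe sets were kept.

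Old and young samples were compared with limma 3.58.1 in R 4.3.3 (lmFit, eBayes, two-sided, Benjamini-Hochberg over 18193 genes, or over 34945 probe sets where single probe sets are given). SAM, the study's test, was rewritten as an alternative. On simulated data for this comparison with 18193 genes, limma passed 70 of 100 genes changed by 0.5 and 99 of 100 changed by 1.5 (log2). Arrays have no read depth, and 3 per group limit the precision. The 6 genes and the lists were chosen with earlier results of these data known. Every class II gene could be named, and from other lists up to 5 genes with the smallest p and preset markers. Amh, Foxl2 and Gdf9 were named after their values were seen.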

Additional observations from a re-analysis of the deposited data

How the results depend on the processing

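H2-Aa, Cd74 and H2-Eb1 stayed higher and past the adjusted p in every alternative that held them: SAM, averaged probe sets, dim genes left out, quantile normalization, cyclic loess, a pseudocount of 16, another prior, array weights and each sample left out. H2-Ab1 did too, except without the shared probe sets (0.004), where 2 class II genes in place of 4 passed. At a fold minimum of 1.5, 2 class II genes, H2-Aa and H2-Ab1, and 617 genes in all were called, against 139 at a fold of 2. Ciita changed sign after quantile normalization (-0.019) and cyclic loess (-0.002), and H2-DMa with averaged probe sets (-0.021), with array weights (-0.013) and over the samples left out (-0.062 to 0.192), never past the test. With the dim genes left out, 4 of the 6 genes were tested. Leaving out a sample gave 2615 to 3615 genes past the adjusted p against 4257, and the lowest counts came without old replicate 3 and without young replicate 2 (2661). With the replicate block, 3406 genes passed, and H2-Aa (adjusted p = 0.0029 from limma), H2-Ab1 (0.0060), H2-Eb1 (0.011) and Cd74 (0.014) stayed past it. Samples with the same number correlated at 0.053, 0 and 0.043 in their deviations from the group means, so the numbers were not taken as pairs. Signal over background limits Ciita and H2-DMa.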

Other observations

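H2-Ea, the alpha chain gene that is inactive in C57BL/6 mice and that RefSeq lists as a transcribed pseudogene, had 3 probe sets with unlike levels. The probe set 1422891_at read 6.28, 6.45 and 6.48 in the young and 6.90, 6.39 and 6.76 in the old samples. The groups overlapped, and the difference of 0.28 did not pass (adjusted p = 0.16 from limma). The young and old means of 1422891_at, 6.40 and 6.68, were above those of H2-Eb1 (5.83 and 6.28). They were near those of H2-Ab1 (6.11 and 6.71) and Cd74 (6.195 and 6.75). The probe sets 1422892_s_at and 1426202_at of H2-Ea were at 2.85 and 2.93 and at 2.002 and 1.86 in the young and old samples. Which transcript gave the signal of 1422891_at was not tested.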
